A study of Mus musculus with 24 samples.

Results

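The 10 genes described here are markers that are in common use for hepatic stellate cells and liver fibroblasts: Dcn, Des, Lrat, Rgs5, Reln, Hgf, Col1a1, Col1a2, Col3a1 and Col14a1. They were chosen by name, out of 52636 genes in the count files, and all 10 were counted in all 24 libraries, with at least 4 reads in each. The libraries were made from polysome-associated RNA of liver, that is, from messenger RNA that carries ribosomes, and were selected by the poly(A) tail without regard to strand. The animals were C57BL/6 mice of 5 months of age. Mice under calorie restriction (CR) had received a diet lowered in calories by 30% for 3 months, from 2 months of age, and the other mice were fed ad libitum (AL). Livers of each diet were taken at zeitgeber time (ZT) 2, 6, 10, 14, 18 and 22 h, so that there were 12 groups with 2 libraries in each. The labels do not say whether the 2 libraries of a group came from separate animals, so the p-values measure the spread between libraries, which may be partly technical. When the CR mice received their food is not stated in the labels.

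Hepatic stellate cells lie between the hepatocytes and the endothelium of the sinusoids and store vitamin A as retinyl esters in lipid droplets. After injury they lose these droplets and turn into myofibroblasts that lay down fibrillar collagen, together with fibroblasts of the portal tracts. In a quiet liver they are a small share of all cells, and they are known for signalling to hepatocytes and endothelium with secreted ligands. Lrat is the acyltransferase that esterifies retinol. Reln is reelin, a large secreted glycoprotein, and Hgf is hepatocyte growth factor, the ligand of the receptor Met. Des is desmin, an intermediate filament protein that muscle cells make in large amounts and that rodent stellate cells also make. Rgs5 is a regulator of G protein signalling known from pericytes. Dcn is decorin, a small leucine-rich proteoglycan that binds collagen fibrils and TGF-beta. Col1a1 and Col1a2 are the chains of type I collagen, Col3a1 is the chain of type III collagen, and Col14a1 is the chain of type XIV collagen, which associates with fibrils.

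In the mouse annotation of GRCm38 the members lie as follows, all of them protein-coding genes. Dcn (ENSMUSG00000019929.16) lies at chr10:97479609-97518143 on the plus strand. Des (ENSMUSG00000026208.9) lies at chr1:75360329-75368579, Rgs5 (ENSMUSG00000026678.10) at chr1:169655501-169695813 and Col3a1 (ENSMUSG00000026043.18) at chr1:45311538-45349706, each on the plus strand. Lrat (ENSMUSG00000028003.6) lies at chr3:82892579-82903973 and Reln (ENSMUSG00000042453.14) at chr5:21884454-22344702, both on the minus strand. Hgf (ENSMUSG00000028864.7) lies at chr5:16553495-16620152, Col1a1 (ENSMUSG00000001506.10) at chr11:94936224-94953042, Col1a2 (ENSMUSG00000029661.16) at chr6:4504814-4541544 and Col14a1 (ENSMUSG00000022371.15) at chr15:55307750-55520803, each on the plus strand. Exons of other annotated genes covered 6.74% of the exonic bases of Hgf, 5.86% of those of Des, where the other gene, Gm15179, is antisense, 1.44% of Col3a1 and 1.04% of Reln. Because strand was not kept, reads in those stretches cannot be told apart. No more than 6.02% of the 50-base words of any member, the value of Hgf, occurred in transcripts of other genes.

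The libraries held 16.5 to 60.8 M counted reads in CR and 13.8 to 37.6 M in AL, with medians of 30.0 M in CR and 26.8 M in AL. Reads on ribosomal RNA features made up 1.90% to 62.1% of a library in CR and 1.02% to 62.2% in AL. Levels are given as CPM, a library's read counts relative to its total, with totals scaled with edgeR's TMM factors, which offset differences in composition. The summed level of 10 hepatocyte genes, led by albumin, was 53440 to 118638 CPM in CR and 41913 to 94123 CPM in AL, so the defining genes of the labelled tissue were present at high levels. As total RNA was not analysed here, a transcript's amount and its loading onto polysomes cannot be told apart. In a piece of liver, fewer cells of a type and less RNA per cell cannot be told apart either.

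Per kilobase of exon, and in the order of the CR means, Dcn stood far above the other members. It averaged 31.2 ± 7.80 CPM per kb in CR and 18.3 ± 10.49 CPM per kb in AL (SD, n = 12 each). Rgs5 followed at 4.13 ± 1.40 in CR and 2.88 ± 1.21 CPM per kb in AL, and Col14a1 at 2.22 ± 0.945 in CR and 2.47 ± 0.872 CPM per kb in AL. Des averaged 1.62 ± 1.81 in CR and 0.617 ± 0.313 CPM per kb in AL. Lrat averaged 1.36 ± 0.578 in CR and 1.26 ± 0.576 CPM per kb in AL, and Reln 1.17 ± 0.517 in CR and 0.715 ± 0.243 CPM per kb in AL. By the median of CR, Des stood at 0.843 CPM per kb, below Lrat at 1.14 and Reln at 1.09. The lowest CR means were those of Hgf and of the fibrillar collagens. Hgf averaged 0.450 ± 0.494 in CR and 0.287 ± 0.190 CPM per kb in AL, and Col3a1 0.414 ± 0.236 in CR and 0.618 ± 0.241 CPM per kb in AL. Col1a2 averaged 0.405 ± 0.126 in CR and 0.399 ± 0.115 CPM per kb in AL, and Col1a1 0.186 ± 0.106 in CR and 0.286 ± 0.203 CPM per kb in AL. In this order Dcn differed from Rgs5 by more than the spread in both diets. Des, Lrat and Reln lay within 1 SD of each other in CR, as did Hgf, Col3a1 and Col1a2.

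**Figure D1:**
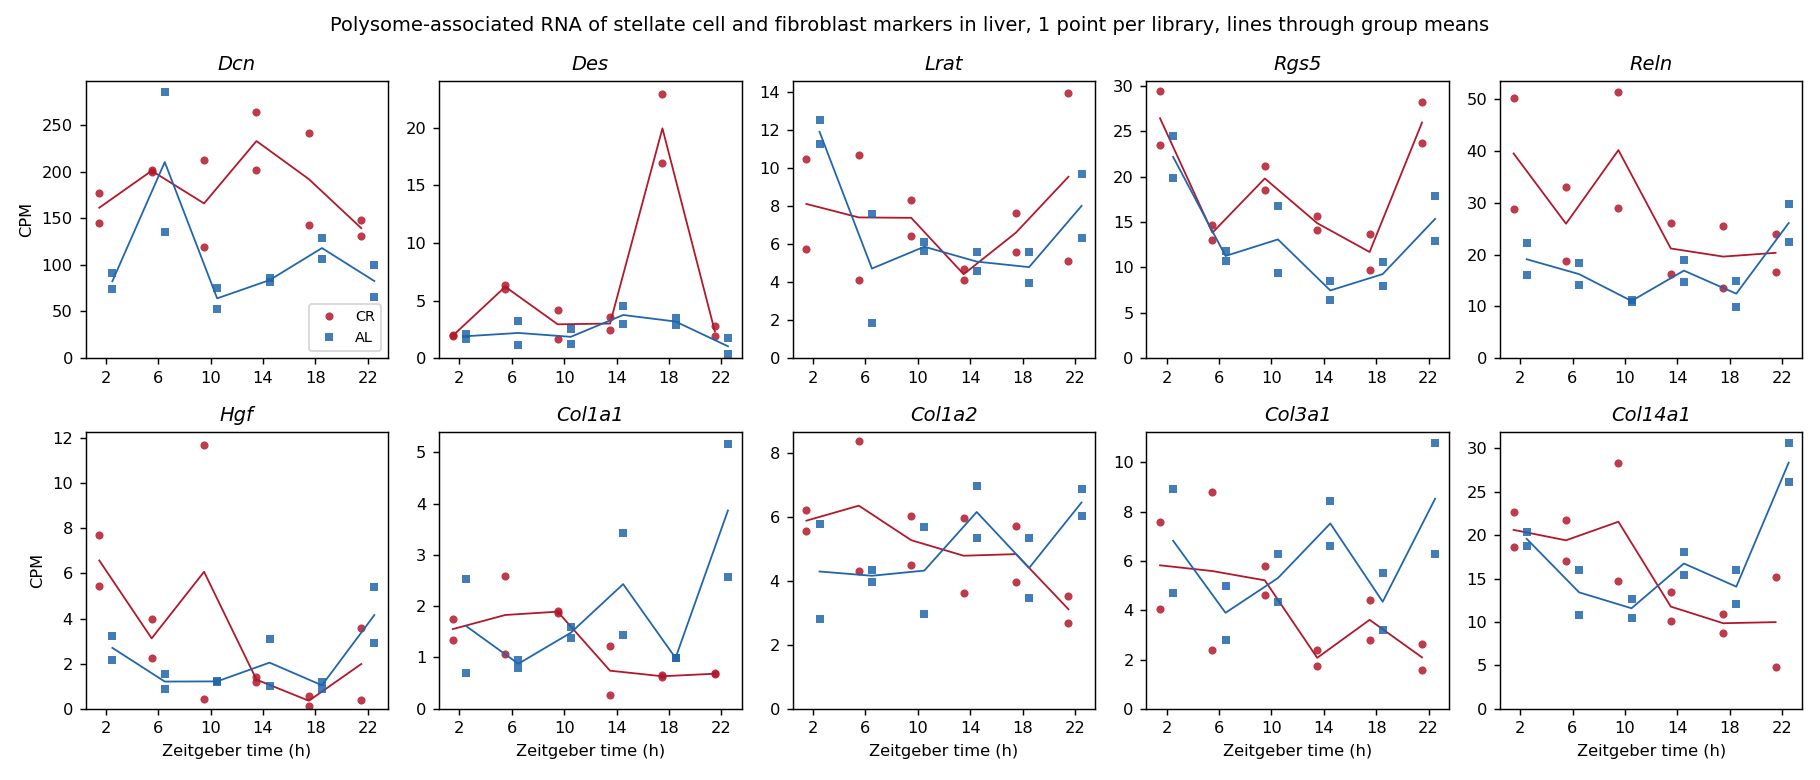
Level of each marker (CPM, linear axis from 0) against zeitgeber time (h); each point is a library, CR as red circles drawn left of AL as blue squares, and lines join the means of 2 libraries. Dcn of CR lies above AL at all hours but ZT6, the Des points of CR at ZT18 stand at 17.0 and 22.9 CPM, and the collagens of CR lie below AL at ZT22.

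The comparison of the diets over the whole day asks whether the polysome-associated RNA of these genes differed on the average of 6 time points. Dcn rose 1.82-fold in CR, Des 1.95-fold, Reln 1.63-fold and Rgs5 1.45-fold. The other 6 members, which include every collagen, did not pass the test. The 4 calls, all in the same direction, are 4 of 10 members, where 12.7% of all 15490 genes tested were called, 5.6% higher and 7.05% lower. The members were chosen with earlier results of these data known, so these shares stand side by side without a test. A gene was called when its p from the quasi-likelihood test of edgeR, adjusted by Benjamini-Hochberg over all tested genes, lay below 0.05. The median log2 change of the 10 members was 0.21, and that of all tested genes was -0.02. The call of Des is lost without ZT18, where transcripts of striated muscle were also high in CR, and Des is described with them below.

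Dcn had 119 CPM in the lowest, 188 in the median and 264 in the highest CR library, against 53.1, 88.4 and 285 CPM in AL. In AL, 9 of the 12 libraries lay below every CR library, and the 1 library above every CR library was AL ZT6 1. The CR libraries had 145 and 177 CPM at ZT2, against 74.0 and 90.9 CPM in AL. At ZT6 they had 199.6 and 202 CPM in CR, against 135 and 285 CPM in AL, the only hour at which the diets overlapped. At ZT10 the CR libraries had 119 and 213 CPM, against 53.1 and 75.0 CPM in AL, and at ZT14 202 and 264 CPM in CR, against 81.4 and 85.9 CPM in AL. At ZT18 they had 143 and 241 CPM in CR, against 107 and 129 CPM in AL, and at ZT22 131 and 148 CPM in CR, against 65.6 and 99.6 CPM in AL. The log2 change over the day was 0.87 ± 0.16 (SE; edgeR, adjusted p = 0.000572). At single hours no difference of Dcn passed, and the nearest was a log2 change of 1.48 ± 0.39 at ZT14 (adjusted p = 0.0526, edgeR).

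Reln had 13.6 CPM in the lowest, 25.9 in the median and 51.5 in the highest CR library, against 9.94, 15.5 and 29.8 CPM in AL. The log2 change over the day was 0.70 ± 0.17 (SE; edgeR, adjusted p = 0.00718), and it was positive at 5 of 6 time points. Both CR libraries lay above both AL libraries at ZT2, ZT6 and ZT10. At ZT10 the levels were 28.9 and 51.5 CPM in CR, against 10.8 and 11.3 CPM in AL. This was a called difference at a single hour, with a log2 change of 1.86 ± 0.42 (adjusted p = 0.0327, edgeR). It was lost without AL ZT10 1, AL ZT10 2 or CR ZT10 2, at 1.93, 1.82 and 1.37. At ZT22 the CR libraries had 16.7 and 23.98 CPM, against 22.4 and 29.8 CPM in AL, so the diets overlapped and AL had the higher mean. Without ZT10 in both diets the change over the day was 0.50 and no longer called (adjusted p = 0.0705, edgeR).

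Rgs5 had 9.74 CPM in the lowest, 17.1 in the median and 29.4 in the highest CR library, against 6.39, 11.3 and 24.5 CPM in AL. The log2 change over the day was the smallest of the called members, 0.54 ± 0.13 (SE; edgeR, adjusted p = 0.00977), and it was positive at all 6 time points. Both CR libraries lay above both AL libraries at ZT6, ZT10, ZT14 and ZT22. Rgs5 lost its call without ZT14 in both diets, with a log2 change of 0.45 (adjusted p = 0.0671, edgeR). It also lost it without the TMM factor, at 0.49 (adjusted p = 0.113, edgeR).

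Of the 4 members called over the day, Des, Rgs5 and Reln have a promoter among the RefSeq sequences of GRCm38.p6, and their 250 bases before the start are printed because these genes moved in the same direction. In all, 7 of the 10 members matched that table. Dcn, Col1a1 and Col14a1 did not. Capitals mark matches, on either strand, to CACGTG and CAGCTG (E-boxes, each its own reverse complement), GGGCGG (the GC box), TATAAA (the TATA box) and CCAAT (the CCAAT box). Des is shown from chr1:75360042-75360291 (plus strand), Rgs5 from chr1:169655251-169655500 (plus strand) and Reln from chr5:22344706-22344955 (minus strand), each 5′ to 3′.
Des: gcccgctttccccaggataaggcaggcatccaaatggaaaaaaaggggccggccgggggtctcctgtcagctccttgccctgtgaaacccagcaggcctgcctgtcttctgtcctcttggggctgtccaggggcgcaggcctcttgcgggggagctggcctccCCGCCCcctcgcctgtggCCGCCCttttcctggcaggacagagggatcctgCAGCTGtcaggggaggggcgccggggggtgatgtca
Rgs5: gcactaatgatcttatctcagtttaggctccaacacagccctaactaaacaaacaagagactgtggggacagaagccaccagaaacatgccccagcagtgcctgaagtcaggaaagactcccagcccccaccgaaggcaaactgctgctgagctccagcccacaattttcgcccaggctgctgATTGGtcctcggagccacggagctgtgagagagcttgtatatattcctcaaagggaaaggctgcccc
Reln: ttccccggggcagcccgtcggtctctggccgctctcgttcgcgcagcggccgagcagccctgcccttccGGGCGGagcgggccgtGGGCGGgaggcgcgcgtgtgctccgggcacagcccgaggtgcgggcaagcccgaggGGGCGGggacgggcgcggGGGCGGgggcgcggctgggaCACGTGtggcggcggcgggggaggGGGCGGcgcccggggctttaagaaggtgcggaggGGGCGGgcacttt

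No motif of this set was found in all 3 promoters. That of Reln held 6 GC boxes and 1 CACGTG, which began at base -71 from the start. That of Des held 2 GC boxes, in the reverse direction, and 1 CAGCTG that began at base -36. That of Rgs5 held 1 CCAAT box, in the reverse direction, that began at base -67. Of the 32851 promoters in the table, 32.7% held a GC box, 33.8% a CCAAT box, 12.4% a TATA box, 13.0% CAGCTG and 6.02% CACGTG. These matches describe the letters of the windows.

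**Figure D2:**
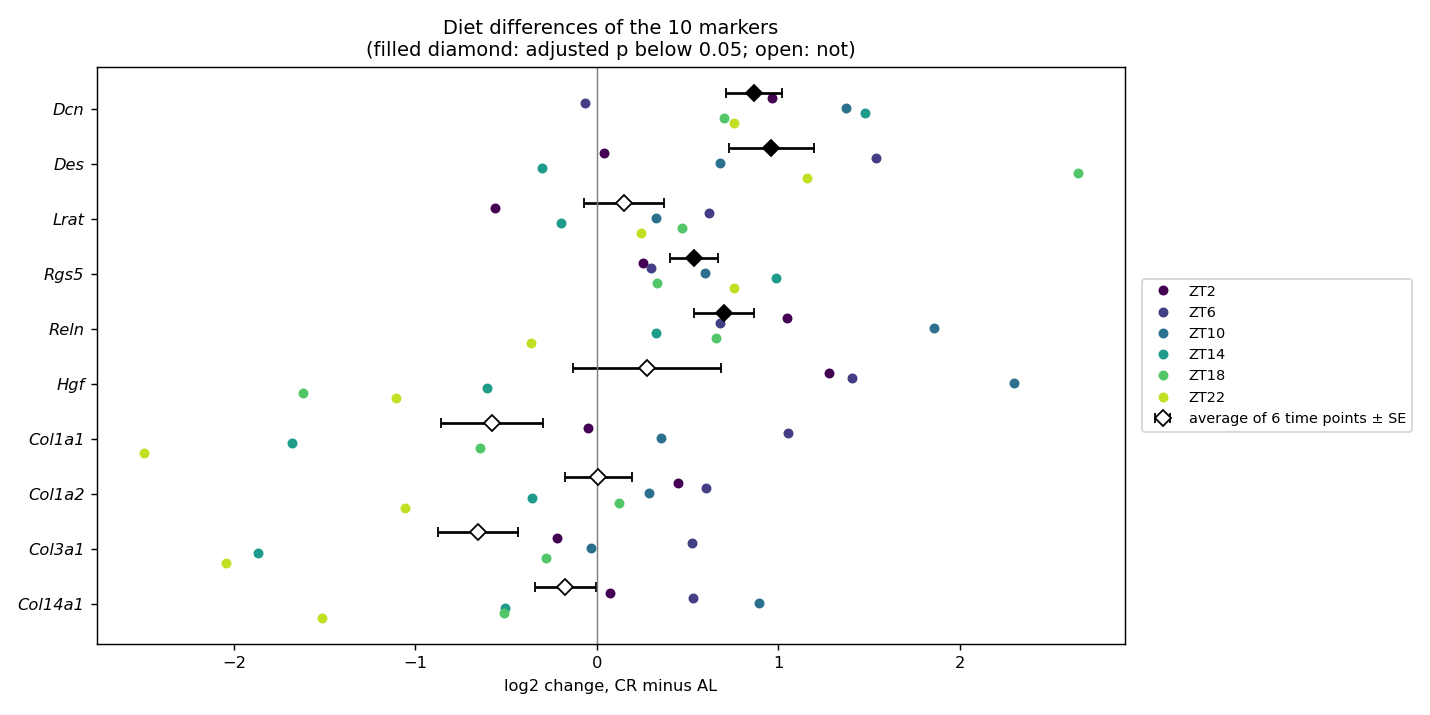
Log2 change, CR minus AL, of each marker; diamonds are the average over 6 time points with SE (filled where called), and coloured points are the single time points. The filled diamonds of Dcn, Des, Rgs5 and Reln lie between 0.54 and 0.96. The single time points lie on both sides of 0 for every marker but Rgs5.

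Des had 1.67 CPM in the lowest, 3.17 in the median and 22.9 in the highest CR library, against 0.343, 2.31 and 4.56 CPM in AL. It was highest by far at ZT18, where the CR libraries had 17.0 and 22.9 CPM, against 2.84 and 3.52 CPM in AL. The next highest were the CR libraries of ZT6, with 6.04 and 6.36 CPM, against 1.18 and 3.20 CPM in AL. At ZT22 the CR libraries had 1.88 and 2.76 CPM, against 0.343 and 1.72 CPM in AL, again without overlap, a log2 change of 1.16 ± 0.62 (adjusted p = 0.391, edgeR). At ZT14 AL had the higher mean, with 2.44 and 3.57 CPM in CR, against 2.93 and 4.56 CPM in AL. The log2 change was 0.96 ± 0.24 over the day (SE; edgeR, adjusted p = 0.00886) and 2.65 ± 0.58 at ZT18 (adjusted p = 0.0373, edgeR). The call at ZT18 was lost when any 1 of the 4 libraries of that hour was left out, with log2 changes of 2.41 to 2.85.

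Transcripts of striated muscle moved with Des. Among 16 genes of striated muscle, a list added after the data were seen, Acta1, the skeletal muscle actin, had 120 and 159 CPM in the CR libraries of ZT18. Tnnt3, a troponin of fast muscle, had 103 and 138 CPM there. The library CR ZT6 1 had 21.8 CPM of Acta1 and 26.2 CPM of Tnnt3, while CR ZT6 2, with nearly as much Des, had 0.665 and 0.598 CPM. In AL the highest levels were 1.81 CPM of Acta1 and 2.33 CPM of Tnnt3. The summed level of the list was 2.40 to 751 CPM in CR, with a median of 8.60, and 6.88 to 23.3 CPM in AL, with a median of 13.9. Of its genes, Tnnc2 was not detected in 23 of the 24 libraries, those of CR ZT18 included. Neb, the filament protein nebulin, fell to 4.94 ± 3.08 CPM in CR, against 11.1 ± 5.33 CPM in AL (SD, n = 12 each; log2 change -1.22, adjusted p = 0.00402, edgeR). Of the 16 genes 15 passed the filter on low counts, but without ZT18 only 6 did, so that most passed through the libraries in which they were high, and no count of calls is given for the list.

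Without ZT18 in both diets the log2 change of Des over the day was 0.62 and was not called (adjusted p = 0.166, edgeR). Without ZT18 and without CR ZT6 1, the log2 change of Des over the day was 0.61 and was not called (adjusted p = 0.213, edgeR). Under the same restriction Dcn, Rgs5 and Reln were called higher and Col3a1 was called lower. The part of muscle transcripts in the level of Des was not tested beyond this.

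**Figure D3:**
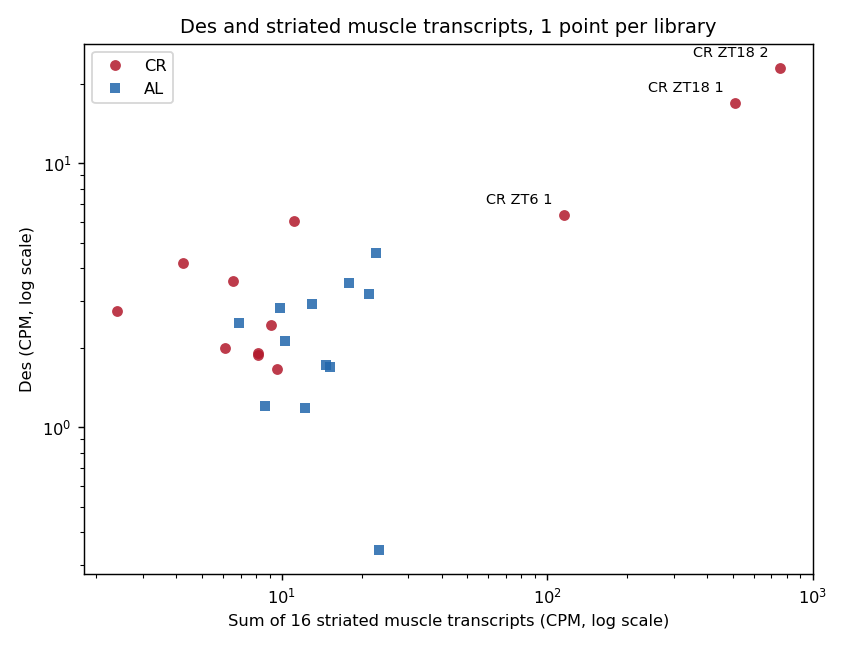
Des (CPM, log scale) against the sum of 16 striated muscle transcripts (CPM, log scale), 1 point per library, CR as red circles and AL as blue squares. The 3 labelled libraries, CR ZT18 1, CR ZT18 2 and CR ZT6 1, stand apart on the horizontal axis, and the first 2 of them also hold the highest Des.

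Lrat did not pass the test. It had 4.12 CPM in the lowest, 6.11 in the median and 14.0 in the highest CR library, against 1.85, 5.87 and 12.5 CPM in AL, so that the diets overlapped over nearly the whole range. The log2 change over the day was 0.15 ± 0.22 (SE; edgeR, adjusted p = 0.743), with an approximate 95% interval of -0.29 to 0.59. Both diets had their cosine peak early in the light phase, at 1.45 h in CR and 1.27 h in AL, but neither rhythm was called.

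Hgf varied widely between libraries. It had 0.143 CPM in the lowest, 1.83 in the median and 11.7 in the highest CR library, against 0.880, 1.38 and 5.39 CPM in AL. The log2 change over the day was 0.28 ± 0.41 (SE; edgeR, adjusted p = 0.742), with an approximate 95% interval of -0.52 to 1.07. Both CR libraries lay above both AL libraries at ZT2 and ZT6 and below them at ZT18. The 2 CR libraries of ZT10 stood at 0.438 and 11.7 CPM, against 1.21 and 1.22 CPM in AL. Those 2 CR libraries had 2.42% and 52.1% of their reads on ribosomal RNA features.

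Across the 24 libraries, log2 CPM of Hgf followed the log2 ratio of ribosomal RNA reads to all others, with Pearson's r = 0.80 (permutation test, two-sided, p = 3.0e-05, adjusted p = 0.0003 over the 10 members) and Spearman's rho = 0.81 (adjusted p = 0.0002). It was 0.90 within CR and 0.70 within AL, and 0.79 without the 2 libraries farthest from the median ratio. Col14a1 followed the ratio with r = 0.58 (adjusted p = 0.0160, permutation test) and Reln with r = 0.51 (adjusted p = 0.0343, permutation test). Within diets r was 0.66 in CR and 0.48 in AL for Col14a1, and 0.58 in CR and 0.67 in AL for Reln. Col1a1, Col1a2 and Col3a1 had r = 0.40, 0.31 and 0.41 and did not pass (adjusted p = 0.103, 0.231 and 0.103, permutation test). Of these 3, Col1a1 passed by rank, with rho = 0.51 (adjusted p = 0.0310, permutation test), and its r was 0.26 in CR and 0.60 in AL. Dcn, Des, Lrat and Rgs5 lay between -0.24 and 0.15, with adjusted p from 0.358 to 0.610 (permutation test). For Dcn r was 0.05 within CR and -0.57 within AL, whose library of the lowest ribosomal RNA share was the one of highest Dcn. With the ratio as a covariate, Dcn, Des, Rgs5 and Reln were again called higher, and Col3a1 was called lower as well.

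**Figure D4:**
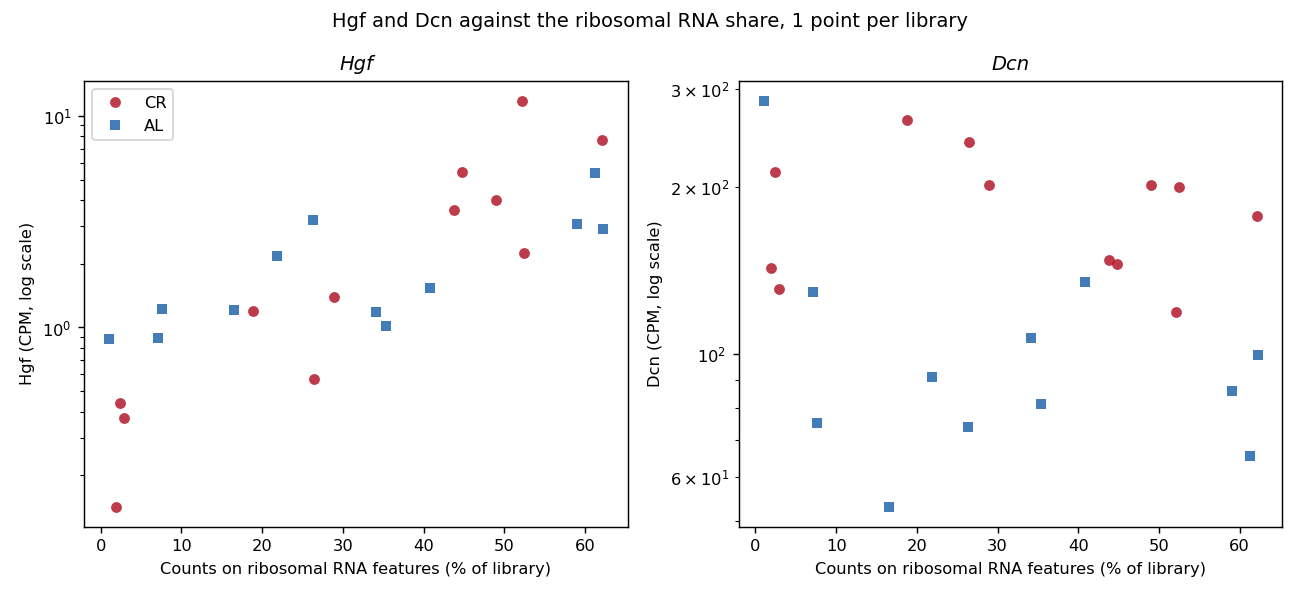
Hgf and Dcn (CPM, log scale) against the share of a library's counts on ribosomal RNA features (%), 1 point per library, CR as red circles and AL as blue squares. Hgf is below 1 CPM in all 3 CR libraries with under 3% and reaches 11.7 CPM at 52.1%, while the Dcn points of CR show no such slope.

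No collagen was called over the day. Col3a1 came nearest, with 1.55 CPM in the lowest, 3.43 in the median and 8.79 in the highest CR library, against 2.80, 5.89 and 10.8 CPM in AL. Its log2 change was -0.65 ± 0.22 (SE; edgeR, adjusted p = 0.0554), and 6 of the 12 CR libraries lay below every AL library. It was called lower in 5 of 18 alternative analyses, DESeq2 among them at -0.62 (adjusted p = 0.0416). It was also called in 7 of 24 analyses that left out 1 library, with the lowest value, -0.86, without CR ZT6 1 (adjusted p = 0.00874, edgeR). Col1a1 had 0.260 CPM in the lowest, 1.14 in the median and 2.59 in the highest CR library, against 0.692, 1.41 and 5.16 CPM in AL. Its log2 change was -0.58 ± 0.28 (SE; edgeR, adjusted p = 0.193). Its counts were the lowest of the collagens, 8 to 144 reads per library in CR and 15 to 126 in AL, so that its changes are the least precise of them.

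Col1a2 and Col14a1 had nearly equal levels in the diets. Col1a2 had 2.69 CPM in the lowest, 5.03 in the median and 8.37 in the highest CR library, against 2.79, 5.33 and 6.96 CPM in AL, and a log2 change of 0.01 ± 0.18 (SE; edgeR, adjusted p = 1.00), with an approximate 95% interval of -0.35 to 0.37. Col14a1 had 4.76 CPM in the lowest, 15.0 in the median and 28.4 in the highest CR library, against 10.48, 16.02 and 30.6 CPM in AL. Its log2 change was -0.17 ± 0.17 (SE; edgeR, adjusted p = 0.575), with an approximate 95% interval of -0.50 to 0.16.

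The comparison at single hours asks when the diets differed. Calls were rare at every hour, at 0.562% of all tested genes at ZT2, 0.387% at ZT6, 0.742% at ZT10, 1.7% at ZT14, 0.562% at ZT18 and 0.936% at ZT22. Among 60 comparisons of members, Des at ZT18 and Reln at ZT10 were called. The next smallest adjusted p was that of Dcn at ZT14, given above. It was followed by Col3a1 and Col14a1 at ZT22, Col3a1 at ZT14 and Col1a1 at ZT22. At ZT22 Col1a1 had 0.670 and 0.698 CPM in CR, against 2.57 and 5.16 CPM in AL, a log2 change of -2.50 ± 0.71 (adjusted p = 0.104, edgeR). Col3a1 had 1.55 and 2.62 CPM in CR, against 6.27 and 10.8 CPM in AL, a log2 change of -2.04 ± 0.56 (adjusted p = 0.0862, edgeR). Col14a1 had 4.76 and 15.2 CPM in CR, against 26.1 and 30.6 CPM in AL, a log2 change of -1.51 ± 0.42 (adjusted p = 0.0975, edgeR). In all 3, the CR libraries lay below the AL libraries at ZT22 without overlap, and none passed the test. The CR libraries of ZT22 had 2.94% and 43.8% of their reads on ribosomal RNA features, against 61.3% and 62.2% in AL. AL ZT22 2C, the highest AL library for Col1a1 and Col3a1, also had the highest AL sums of Kupffer cell genes (810 CPM) and cholangiocyte genes (126 CPM). The part of these library traits in the differences at ZT22 was not tested.

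Earlier in the day Col1a1 and Col14a1 stood the other way, with both CR libraries above both AL libraries at ZT6 and ZT10. At ZT6 Col1a1 had 1.06 and 2.59 CPM in CR, against 0.797 and 0.959 CPM in AL, and Col14a1 had 17.1 and 21.8 CPM in CR, against 10.8 and 16.03 CPM in AL. At ZT10 Col14a1 had 14.7 and 28.4 CPM in CR, against 10.48 and 12.7 CPM in AL. Col3a1 overlapped at ZT6, with 2.39 and 8.79 CPM in CR, against 2.80 and 4.99 CPM in AL, and also at ZT2 and ZT10. A test for a diet difference that changes with the hour called no member, and 0% of all tested genes. At an unadjusted p below 0.05 it held 5 members, namely Des, Reln, Col1a1, Col3a1 and Col14a1, and 1337 of all tested genes. DESeq2 called 189 genes in this test and limma-trend called 0, in both cases with 0 members. Without the filter on low counts the test called 4 members, namely Hgf (adjusted p = 0.000207, edgeR), Des (0.0323), Col14a1 (0.0328) and Col3a1 (0.0336), where 2.63% of 26913 genes were called.

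Rhythms over 24 h were fitted as a cosine and a sine in each diet. No member was called rhythmic in CR, where 1.94% of all tested genes were, or in AL, where 0.42% were, or in the difference of the rhythms, where 0% were. Unadjusted p lay below 0.05 for 4 members in CR, 2 in AL and 4 in the difference, and for 2700, 1608 and 1005 of all 15490 tested genes. DESeq2 called 2, 0 and 0 members in these tests, and 729, 267 and 6 genes in all. limma-trend called 0 members in all 3 tests. The fitted peaks of Reln, Hgf and the 4 collagens lay between 5.59 and 7.48 h in CR, and between 18.4 and 23.2 h in AL. Those of Rgs5 lay close together, at 1.71 h in CR and 2.30 h in AL.

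A test of any difference among the 6 hours, with no assumed shape, called Des in CR (adjusted p = 0.00120, edgeR), where 6.91% of all genes were called. In AL it called Dcn (adjusted p = 0.0386, edgeR) and Rgs5 (adjusted p = 0.0379, edgeR), where 5.05% were called. For Des in CR the high hour was ZT18, and for Dcn in AL it was ZT6, with 135 and 285 CPM against 53.1 to 129 CPM in the other AL libraries. Rgs5 in AL was highest at ZT2, with 19.9 and 24.5 CPM, and lowest at ZT14, with 6.39 and 8.53 CPM. In CR Rgs5 was likewise highest at ZT2 and ZT22, with 23.5 to 29.4 CPM, and lowest at ZT18, with 9.74 and 13.7 CPM, though that test was not passed (adjusted p = 0.0621, edgeR).

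The members did not vary as 1 block over the 24 libraries. Of 45 pairs, 13 passed a permutation test of Pearson's r of log2 CPM (two-sided, adjusted over the 45 pairs), 11 of them positive and 2 negative. The 6 pairs of collagens were all among them. Col1a1 and Col3a1 had r = 0.79 and rho = 0.77, with p = 2.0e-05 and 4.0e-05 (adjusted p = 0.000900 and 0.00135, permutation test). Within diets r was 0.79 in CR and 0.77 in AL, and it was 0.71 without the 2 libraries farthest from the median of Col1a1. Col1a1 and Col1a2, whose products join in 1 fibril protein, had r = 0.70 and rho = 0.74 (adjusted p = 0.00210 and 0.00135, permutation test), with r = 0.71 in CR and 0.78 in AL. Hgf and Col14a1 had r = 0.74 and rho = 0.72 (adjusted p = 0.000900 and 0.00165, permutation test), and both followed the ribosomal RNA ratio.

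The members that rose in CR were less closely tied. Among Dcn, Des, Rgs5 and Reln, the 1 pair that passed was Rgs5 and Reln, with r = 0.52 and rho = 0.49 (adjusted p = 0.0450 and 0.0515, permutation test), so that rho missed the threshold. Dcn and Des had r = 0.36, with 0.33 within CR and -0.04 within AL. Rgs5 and Des had r = -0.26 over both diets, but -0.83 within CR and -0.32 within AL. Dcn and Col3a1 ran against each other, with r = -0.50 and rho = -0.53 (adjusted p = 0.0462 and 0.0347, permutation test), but r was -0.05 within CR and -0.55 within AL. The other negative pair was Des and Hgf, with r = -0.50 and rho = -0.42 (adjusted p = 0.0462 and 0.105, permutation test). Its r was -0.68 within CR and -0.21 within AL. As these libraries come from 12 groups, the correlations hold any shared source of variation, diet and depth included. On deviations from the group means, which leave out diet and hour, the 2 libraries of a group mirror each other. The 24 values of a gene then hold only 12 independent ones. A permutation over 24 libraries does not suit them, so r is given without a test. On these deviations r was 0.73 for Col1a1 and Col1a2, 0.68 for Col1a2 and Col3a1 and 0.59 for Col1a1 and Col3a1. The pairs of Col14a1 were lower, at 0.18 with Col1a1, 0.21 with Col1a2 and 0.17 with Col3a1.

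**Figure D5:**
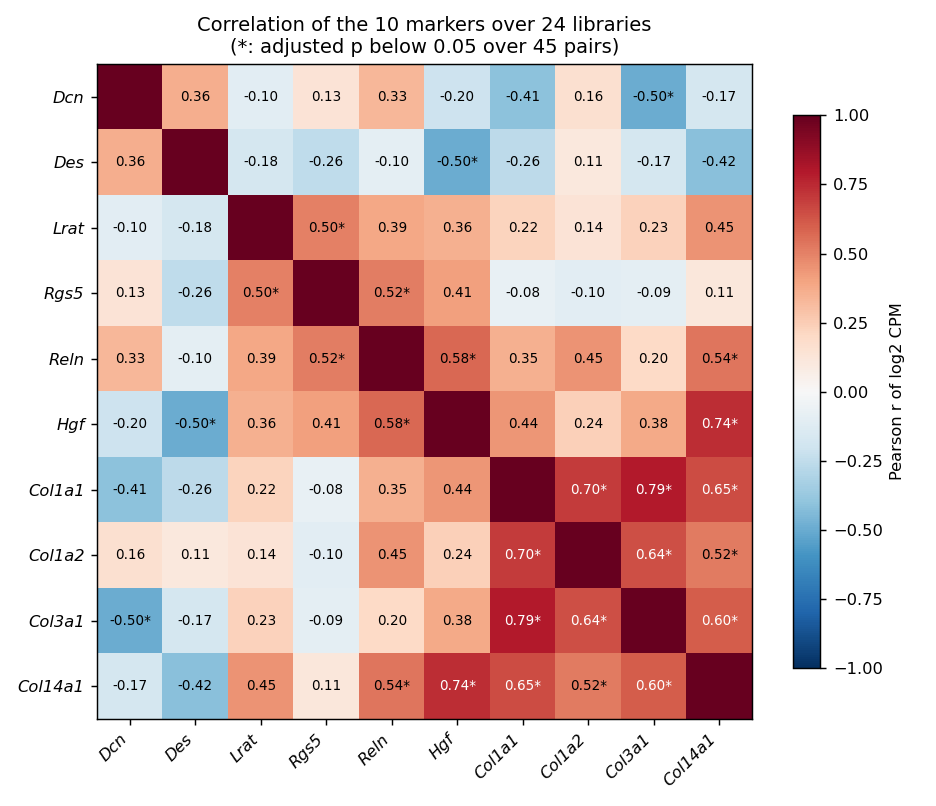
Pearson r of log2 CPM between all pairs of the 10 markers over 24 libraries, with red for positive and blue for negative values and an asterisk for pairs past an adjusted p of 0.05. The block of positive values at the lower right holds the 4 collagens, from 0.52 to 0.79.

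Genes whose profiles were most like those of Dcn, Col1a1 and Rgs5 were taken from 10107 other genes of at least 1 CPM, by Pearson's r of log2 CPM over the 24 libraries. For Dcn these were Ggnbp2 (r = 0.84), Tmem53 (r = 0.84), the bile acid and fatty acid CoA ligase Slc27a5 (r = 0.83) and the chromatin remodelling subunit Pbrm1 (r = 0.82). All 4 rose in CR, with log2 changes from 0.40 to 0.79. As they were picked by likeness to Dcn over both diets, this rise follows in part from the choice. For Col1a1 they were Dock8, a guanine nucleotide exchange factor of leukocytes (r = 0.75), Fkbp15 (r = 0.74), the acute phase protein Serpina3n (r = 0.73) and the receptor Notch1 (r = 0.73). For Rgs5 they were Sesn1, a stress-induced sestrin (r = 0.81), Podxl, a sialomucin of endothelium (r = 0.79), Rtn4 (r = 0.79) and the transcription factor Gtf2a1 (r = 0.78). None of these 12 genes is among the lists of stellate cell genes, and likeness of profile says nothing of the cell of origin.

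Other genes of the same cells and pathways were taken from lists. Of 36 other stellate cell and fibroblast markers, 8 were higher in CR and 0 lower, with a median log2 change of 0.15. They included Rspo3, a Wnt agonist, with 21.7 ± 9.23 CPM in CR and 10.6 ± 5.04 CPM in AL (SD, n = 12 each; log2 change 1.10, adjusted p = 0.00276, edgeR). Ecm1, an extracellular matrix protein, had 185 ± 49.5 CPM in CR and 102 ± 50.5 CPM in AL (log2 change 0.89, adjusted p = 0.00449, edgeR). The parathyroid hormone receptor Pth1r rose by 0.73 and the transcription factor Lhx2 by 0.81 on the log2 scale (adjusted p = 0.00945 and 0.00989, edgeR). Without ZT18 and CR ZT6 1, 7 were higher and 2 lower.

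Of 15 genes of stellate cell activation tested, 2 were higher and 1 lower, with a median of 0.38, where 5.6% of all genes were higher and 7.05% lower. Without ZT18 and CR ZT6 1 the counts were 1 and 1. Ccn2, a matricellular protein induced by TGF-beta, had 3.19 ± 2.19 CPM in CR and 0.914 ± 0.488 CPM in AL (SD, n = 12 each; log2 change 1.63, adjusted p = 0.000399, edgeR). Acta2, smooth muscle actin, had 4.23 ± 3.55 CPM in CR and 2.09 ± 0.817 CPM in AL (log2 change 0.78, adjusted p = 0.0287, edgeR), and was not called without ZT18 and CR ZT6 1, at 0.50 (adjusted p = 0.220, edgeR). Tgfb1, a ligand of the pathway, fell by 0.83 on the log2 scale, to 3.40 ± 1.61 CPM in CR, against 5.66 ± 2.11 CPM in AL (adjusted p = 0.00662, edgeR). Of the 28 genes of the TGF-beta pathway, 3 were higher and 2 lower, with a median of -0.01. Besides Ccn2 and Tgfb1, the repressor Tgif1 fell by 0.88 and the coreceptor Tgfbr3 rose by 0.52 on the log2 scale (adjusted p = 0.00825 and 0.0319, edgeR).

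On the diet average, few genes of the collagen machinery were called. Of 16 other collagens, 1 was higher, Col13a1, a transmembrane collagen, by 1.02 on the log2 scale (adjusted p = 0.00700, edgeR), and 0 were lower, with a median of 0.13 and a range of -0.70 to 1.52. Of 26 genes of collagen synthesis and crosslinking, 1 was higher and 2 lower, with a median of -0.01 and a range of -1.27 to 1.39. The prolyl isomerase Ppib had 7.75 ± 4.42 CPM in CR and 19.5 ± 8.74 CPM in AL (SD, n = 12 each; log2 change -1.27, adjusted p = 0.00368, edgeR). The procollagen enhancer Pcolce2 fell by 0.91 and the isomerase Fkbp10 rose by 1.39 on the log2 scale (adjusted p = 0.0346 and 0.00955, edgeR). Of the same 26 genes, 4 were called rhythmic in CR, where 1.94% of all tested genes were. In AL 0 were, where 0.42% of all tested genes were. Among 11 genes of collagen breakdown and its inhibitors, 1 was higher, the membrane collagenase Mmp14, with 41.3 ± 20.8 CPM in CR and 14.3 ± 7.71 CPM in AL (log2 change 1.47, adjusted p = 0.000163, edgeR). The median of that list was 0.01 and its range -0.80 to 1.47. Of the 7 other small leucine-rich proteoglycans tested, 0 were called in edgeR, DESeq2 or limma-trend, and 1 had an unadjusted p below 0.05 in edgeR. Their median was 0.03. The genes of smallest p were Fmod, with a log2 change of 0.78, and Prelp, with -0.27 (adjusted p = 0.187 and 0.270, edgeR).

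Vitamin A, the substrate of Lrat, has its own set of genes. Of 20 tested, 5 were higher and 0 lower, with a median of 0.14. Cyp26a1 and Cyp26b1, which degrade retinoic acid, had 57.0 ± 58.9 and 10.3 ± 7.54 CPM in CR, against 14.6 ± 7.47 and 3.68 ± 3.19 CPM in AL (SD, n = 12 each), with log2 changes of 1.65 and 1.67 (adjusted p = 0.00225 and 0.0137, edgeR). The retinoic acid receptor Rarb rose by 1.70 and Dgat1, an acyltransferase that can also esterify retinol, by 0.44 on the log2 scale (adjusted p = 0.0144 and 0.0170, edgeR). Without ZT18 and CR ZT6 1, 1 gene was higher and 1 lower. Cyp26a1 was then at 0.49 and Cyp26b1 at 1.49, and neither was called. Rarb was not called either, and its estimate was not stable, since CR ZT6 2 held 0 reads of it.

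The partners of the secreted ligands were few. Of 6 genes of reelin signalling tested, 1 was higher and 0 lower, with a median of -0.13. Vldlr, a receptor of reelin and of lipoproteins, had 4.81 ± 3.53 CPM in CR and 0.319 ± 0.270 CPM in AL (SD, n = 12 each), a log2 change of 3.92 ± 0.54 (SE; adjusted p = 2.92e-05, edgeR). It was 3.68 without ZT18 (adjusted p = 0.000358, edgeR). With CR ZT6 1 left out as well, Vldlr was not called. Its estimate was then not stable, since a remaining library of ZT6 held 0 reads of it. Of the 12 genes around Hgf, 0 were called in edgeR, with a median of 0.12, and 3 had an unadjusted p below 0.05. DESeq2 called 1 higher and limma-trend called 1 lower. The protease inhibitor Serpina5 was at 0 reads in 8 libraries. Its log2 change was -2.39, and that of Mst1, a paralog of Hgf, was 0.37 (adjusted p = 0.0789 and 0.0821, edgeR).

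Markers of other liver cells were set beside these values. Kupffer cell genes were lower, 11 of 15, and 1 was higher, with a median of -1.17, and their summed level was 171 to 300.2 CPM in CR and 296 to 810 CPM in AL. Of these, Cd68 and Lyz2 each fell by 1.58, Clec4f fell by 1.17 and C1qc fell by 1.24 on the log2 scale (largest adjusted p = 0.000144, edgeR). The scavenger receptor Marco, named after its values were seen, rose by 0.84 (adjusted p = 0.0411, edgeR). Of 11 lymphocyte genes 0 were higher and 3 lower, namely Cd4, Ighm and Ptprc, with sums of 6.13 to 20.7 CPM in CR and 10.2 to 41.4 CPM in AL. Of 18 endothelial genes 2 were higher, Lyve1 and Wnt9b, and 1 lower, Cdh5, with sums of 188 to 333 CPM in CR and 169.8 to 321 CPM in AL. Of 12 genes of smooth muscle and pericytes, 2 were higher, Acta2 and Mcam, and 0 lower, with a median of 0.41. Their sum was 16.1 to 43.0 CPM in CR and 13.4 to 25.7 CPM in AL, and 0 were called without ZT18 and CR ZT6 1.

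Of 6 mesothelial genes 2 were higher, Msln and Lrrn4, and 0 lower, with sums of 1.73 to 16.3 CPM in CR and 1.92 to 5.44 CPM in AL. Without ZT18 in both diets the log2 change was 2.05 for Lrrn4 (adjusted p = 0.0421, edgeR) and 1.05 for Msln (adjusted p = 0.0889, edgeR). Without CR ZT6 1 as well, Msln was at 0.68 and neither gene was called. The estimate of Lrrn4 was then not stable, since a remaining library of ZT6 held 0 reads of it. Of 8 cholangiocyte genes 0 were called in edgeR or limma-trend and 1 in DESeq2, and 1 had an unadjusted p below 0.05 in edgeR. Krt7 and Spp1 had the smallest p, with log2 changes of 0.87 and -0.46 (adjusted p = 0.0741 and 0.218, edgeR). Their sums were 23.1 to 59.4 CPM in CR and 34.6 to 126 CPM in AL. Of 10 hepatocyte genes 1 was higher, transferrin (Trf), and 1 lower, Serpina1a. In these 7 lists no gene was at 0 in all libraries of a diet. The part of these cells in the levels of the 10 members was not tested.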

How the data were processed

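Liver libraries of polysome-associated poly(A) RNA, 12 per diet, were analysed from raw read counts per gene, whole numbers that the authors deposited without normalization. Per the submitters' processing notes, FastQC, HTSeq and DESeq2 were used with genome build GRCm38.p5. Versions and the aligner were not given in the sources used here. The reference annotation gave 52403 of 52636 identifiers a symbol, and all 10 members matched.

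Counts were tested with edgeR 4.0.16 (R 4.3.3; TMM, filterByExpr, quasi-likelihood F-test, Benjamini-Hochberg adjustment over 15490 genes at 0.05) in 1 model with 12 group means. The filter let every member through, and counting error limits those with few reads. Contrasts were the average diet difference, CR minus AL at each hour, their interaction, and a cosine and sine of 24 h per diet. Correlations used log2 CPM (prior count 2) and 100000 permutations. Alternatives were DESeq2 1.42.0, limma-trend (limma 3.58.1), other scalings and filters, the ribosomal RNA ratio (363 features) as covariate, the replicate number as a block and the removal of each library in turn. Leaving out time points and muscle-rich libraries, and the muscle list, were added after the data were seen. The code was tested on simulated data.

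The members and lists were chosen with earlier results of these data known. Named are all members, per list up to 4 called genes of smallest p (2 where none was called), and the 4 genes most like Dcn, Col1a1 and Rgs5. In the main model the replicate numbers were not used to pair the libraries.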

Additional observations from a re-analysis of the deposited data

How the results depend on the processing

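Over 18 alternatives 3 to 5 members were called on the diet average, and 4 to 5 when each library was left out. Dcn was called in all of them, at log2 changes of 0.78 to 0.97 without 1 library. The ranges without 1 library were 0.82 to 1.22 for Des, 0.47 to 0.65 for Rgs5, 0.61 to 0.77 for Reln, 0.005 to 0.37 for Lrat, -0.36 to 0.45 for Hgf, -0.087 to 0.14 for Col1a2, -0.86 to -0.55 for Col3a1, -0.83 to -0.38 for Col1a1 and -0.31 to -0.04 for Col14a1. Signs turned only in members that were not called. Lrat was -0.085 without ZT18 and CR ZT6 1. Hgf was -0.036 in limma-trend, -0.061 with the ribosomal RNA ratio as covariate and -0.11 without 10 h. Col1a2 was -0.022 without a composition factor, -0.0028 without a filter, -0.13 without ZT18 and CR ZT6 1, and -0.078, -0.11, -0.018 and -0.012 without 2, 6, 10 and 18 h. Col14a1 was 0.13 without 22 h. The cause was not tested.

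Calls of members at single hours, 2 in the main analysis, numbered 8 in DESeq2 and without a filter, 4 in limma-trend, 1 with the filter of 1 CPM in 12 libraries, 1 without AL ZT22 2C and AL ZT10 1, and 1 to 5 without 1 library. On the diet average DESeq2 called 2521 genes in all, the fit without a filter 2264 and limma-trend 1918, against 1960 in the main analysis. Without a composition factor neither Des at ZT18 nor Reln at ZT10 was called. Without a filter the interaction called 4 members, the CR rhythm 2 and the rhythm difference 1. The share of all genes called is not given here for single hours in these alternatives, nor for the rhythms without a filter. Those counts therefore describe the settings and not the members. DESeq2 called 2 members for the CR rhythm. Time point means called 1 in CR and 2 in AL. Without 1 library the interaction, both rhythms and their difference called 0 members. Of all genes, 1960 were called, 1170 without a composition factor, 1293 without AL ZT22 2C and AL ZT10 1, and 1412 to 2708 without 1 library. Pairs past the correlation test numbered 13, and 6 to 13 without 1 library. Of the lists, the genes higher over the 18 alternatives numbered 4 to 9 for other stellate cell and fibroblast markers (8 in the main analysis), 1 to 3 for activation (2), 1 to 3 for TGF-beta (3), 1 to 6 for vitamin A (5), 0 to 2 for collagen synthesis (1), 0 to 1 for reelin (1), 0 to 2 for smooth muscle (2), 1 to 4 for endothelium (2), 0 to 3 for mesothelium (2), 0 to 1 for Kupffer cells (1) and 0 to 2 for hepatocytes (1). Those lower numbered 0 to 2 for other stellate cell and fibroblast markers (0), 1 to 3 for activation (1) and collagen synthesis (2), 0 to 2 for endothelium (1) and 1 to 6 for lymphocytes (3).

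Libraries with the same number showed no general tendency to deviate together, though some pairs of groups did. Over 55 pairs of groups r was -0.25 to 0.51, with 9 over 0.1. With the replicate block, the 4 members Dcn, Des, Rgs5 and Reln and 1790 genes in all were called on the diet average, and 3 member calls were made at single hours. Depth limits Hgf, Des and Col1a1, whose lowest libraries held 12, 4 and 8 reads.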
